A study of Mus musculus with 6 samples.

Results

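The genes described are those of the P2X and acid-sensing ion channel families, 10 members in all: P2rx2, P2rx3, P2rx4, P2rx5, P2rx6, P2rx7, Asic1, Asic2, Asic3 and Asic4. They were chosen by gene symbol from the 38926 symbols of the count tables, without use of their values, and all 10 were found. Read counts came from dorsal root ganglia, which house the cell bodies of the sensory neurons. The ganglia were those of lumbar levels L3, L4 and L5 of wild-type male C57BL/6 mice aged 6 to 8 weeks. Of the 6 libraries, 3 were taken 3 days after the animals were burned and 3 were controls, and the study asked which transcripts accompany burn pain. The labels do not say what treatment the controls received, whether each library came from a separate animal, or whether animals were pooled, so the spread between libraries may be technical. A burn library whose title gives no number and names it ipsilateral is called burn 3 here. The labels speak both of neurons and of whole ganglia, and the extraction started from whole ganglia.

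P2X subunits assemble as trimers into cation channels that open when extracellular ATP binds, and ATP is released by damaged or stressed cells. P2X3 is the subunit best known from small pain-sensing neurons, where it forms channels alone or together with P2X2, while P2X4 and P2X7 are best known from microglia, macrophages and glia. Acid-sensing ion channels are trimeric sodium channels of the same overall build, opened by a fall in extracellular pH such as occurs in inflamed or injured tissue. ASIC1, ASIC2 and ASIC3 are the subunits of sensory neurons, and ASIC4 does not form an acid-gated channel by itself.

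Each library held from 17273908 to 81968142 reads counted in genes, and burn 3 and control 3 were the deepest. All 8 pan-neuronal markers were present in every library, with summed levels of 6516 to 8351 CPM (reads per 1000000 reads counted in genes, scaled for library composition) in controls and 6199 to 7432 CPM after the burn, so the libraries carried the neuronal transcripts that the labels name. Markers of other tissues were present too. The 14 skeletal muscle markers summed to 791 to 13097 CPM in controls and 2072 to 12012 CPM after the burn. The 12 spinal cord markers summed to 38.4 to 63.9 CPM in controls and 57.6 to 99.9 CPM after the burn, and 11 of the 12 had a positive log2 fold change, with a median of 1.40. None was called. With an unadjusted edgeR p under 0.05, 11 were higher after the burn, where 2.04% of all tested genes were. In 7 of the 12 every burn library was above every control, where 4.33% of all tested genes were. No marker of the neuronal, glial, macrophage, muscle or spinal cord lists was at 0 in any library. In whole tissue, fewer cells of a type and less RNA per cell cannot be told apart.

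No member of either family passed the test between burn and control. With edgeR's quasi-likelihood test at a Benjamini-Hochberg adjusted p under 0.05, 0 of the 9 members tested were called, against 0.0228% of the 17534 genes tested. DESeq2 and limma-voom also called 0 members, and 0 members had an unadjusted p under 0.05 in any of the 3 tools. By that unadjusted measure 2.04% of all tested genes were higher and 0.924% lower. The log2 fold changes of the 9 members ran from -0.24 to 0.15 with a median of -0.06, and the median over all tested genes was 0.01. Asic4, with 23 reads over the 6 libraries, was the member that did not pass the filter on low counts.

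**Figure D1:**
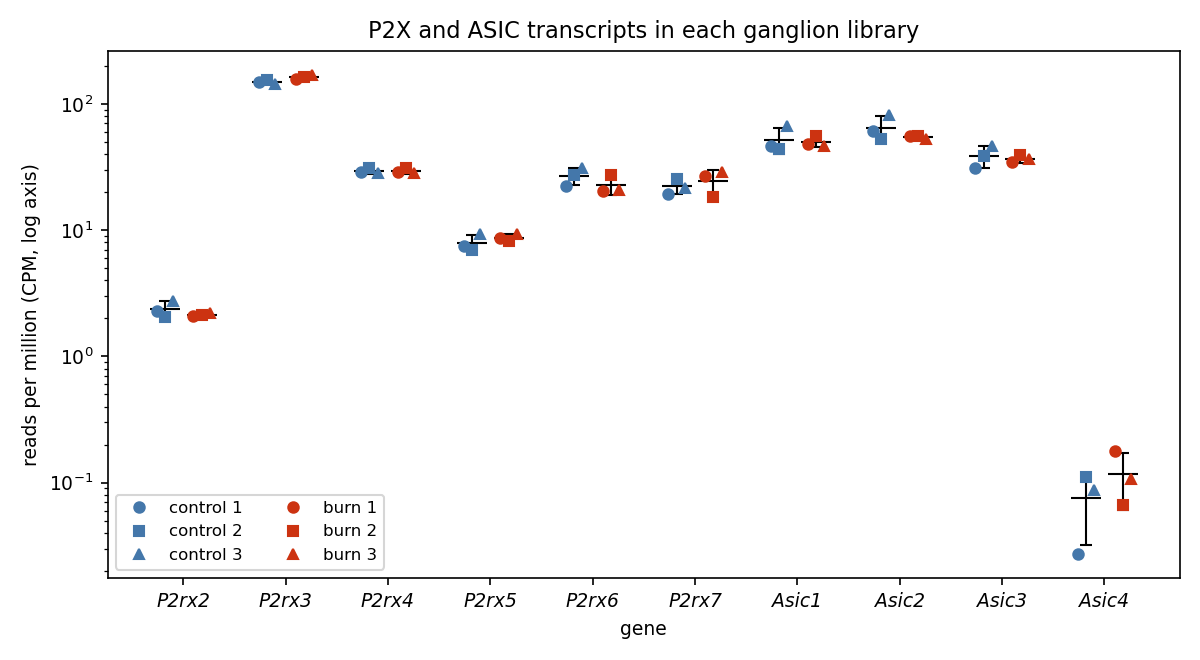
CPM (log axis) of the 10 genes in each library, controls in blue and burn in red, with the marker shape giving the library number; black bars are group means and SD (n = 3). P2rx3 stands between 143 and 170 CPM, P2rx2 between 2.06 and 2.75 CPM, and Asic4 under 0.2 CPM.

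The members differed far more from each other than between the groups. Levels of different genes were compared as CPM per kilobase of annotated exon (RPKM), the mean over the 6 libraries. P2rx3 had the highest level, 56.0 ± 3.39 RPKM (SD, n = 6), above 95.6% of the tested genes with an annotated length. Asic3 followed at 15.5 ± 2.12 RPKM and Asic2 at 14.05 ± 2.54 RPKM. Asic1 stood at 8.90 ± 1.47 RPKM and P2rx6 at 6.22 ± 1.07 RPKM. P2rx4 had 4.19 ± 0.183 RPKM, P2rx7 3.92 ± 0.707 RPKM and P2rx5 3.46 ± 0.396 RPKM. P2rx2 had 0.875 ± 0.101 RPKM, above 18.9% of the tested genes, and Asic4 had 0.0352 ± 0.0184 RPKM.

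Not all neighbours in this order differed beyond their spread. P2rx3 was above Asic3 in every library, by a mean ratio of 3.60. The ranges of Asic3 and Asic2 overlapped, and Asic3 was the higher in 5 of 6 libraries. Asic2 lay above Asic1 in 6 of 6 libraries with no overlap of ranges. P2rx4, P2rx7 and P2rx5 had overlapping ranges as neighbours, and in each pair the gene with the higher mean was the higher in 4 of 6 libraries. P2rx5 lay above P2rx2 with a ratio of the means of 3.95, and P2rx2 above Asic4 with a ratio of the means of 24.9, each with no overlap. With the longest annotated transcript as the length, Asic2 (17.4 RPKM) stood ahead of Asic3 (17.02 RPKM), and P2rx4 (7.55 RPKM) ahead of P2rx6 (7.35 RPKM). The order of these neighbouring pairs therefore rests on the length chosen, while P2rx3 at the top and P2rx2 and Asic4 at the bottom did not move.

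**Figure D2:**
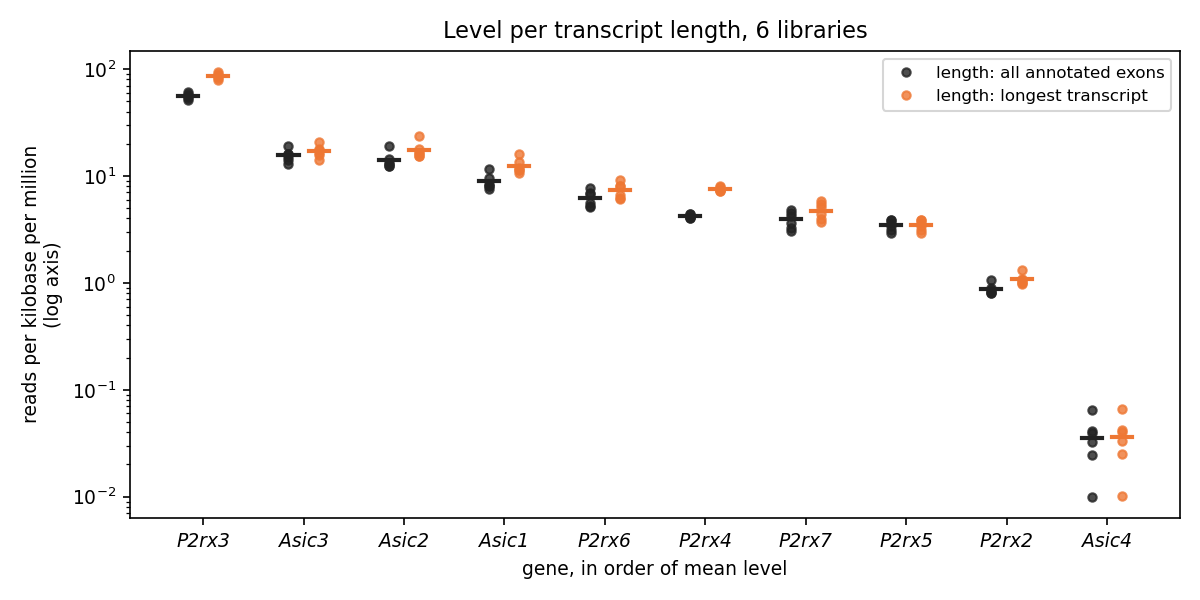
CPM per kilobase (RPKM, log axis) of the 10 genes, 1 point per library and a bar for the mean of 6, with the length taken from all annotated exons (black) or from the longest transcript (orange). P2rx3 leads under either length, and the Asic2 and Asic3 pair and the P2rx4 and P2rx6 pair change places.

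P2rx3, the subunit of small nociceptors, lies on chromosome 2 at 84998583 to 85037462, minus strand (GRCm38, GENCODE mouse release 21). It stood at 149, 156 and 143 CPM in control libraries 1 to 3 and at 157, 162 and 170 CPM in burn libraries 1 to 3, from 2797 to 11401 reads per library. All 3 burn libraries were above all 3 controls, with burn 1 just above control 2. Among all tested genes 4.33% had every burn library above every control, so 1 of 9 members in this position is no result about the members. The group means were 163 ± 6.62 and 149 ± 6.19 CPM (SD, n = 3), a ratio of 1.09. The log2 fold change was 0.13 (SE 0.10, 95% interval -0.11 to 0.36, unadjusted p 0.247, edgeR adjusted p 0.9998). An exact two-sided permutation test on CPM gave p = 0.1, the smallest that 3 against 3 allows. In the deeper pair of libraries P2rx3 differed by 0.25 on the log2 scale and among the 4 shallower ones by 0.07.

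The 9 markers of the non-peptidergic nociceptors that carry P2rx3 were all tested and 0 were called, against 0.0228% of all tested genes. Their median log2 fold change was 0.02. In 1 of the 9 every burn library was above every control, where 4.33% of all tested genes were, so this is no result about the markers. Their summed level ran from 1775 to 2158 CPM in controls and from 1961 to 2078 CPM after the burn, so the groups overlapped. The control library with the highest sum of these markers, control 3, was the one with the lowest P2rx3. Whether the make-up of the neurons had a part in the P2rx3 values was not tested.

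P2rx2 encodes the partner of P2X3 in heteromeric channels, and lies on chromosome 5 at 110339812 to 110343212, minus strand. It had 84, 37 and 219 reads in control libraries 1 to 3 and 47, 64 and 146 in burn libraries 1 to 3. In CPM these were 2.29, 2.06 and 2.75 against 2.08, 2.12 and 2.22, so the burn libraries lay inside the range of the controls. The log2 fold change was -0.16 (SE 0.20, 95% interval -0.63 to 0.32, edgeR adjusted p 0.9998), and leaving out 1 library at a time gave -0.24 to -0.022. Per kilobase, P2rx3 exceeded P2rx2 by 48.05 to 70.6 times in single libraries, with the lowest ratio in control 3. This ratio is of transcripts in whole ganglia and says nothing of protein or of single cells.

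P2rx3 made up most of the P2X transcripts. Of the summed RPKM of the P2X genes, P2rx1 included, P2rx3 took 74.0%, 73.6% and 71.0% in control libraries 1 to 3 and 75.0%, 75.0% and 76.1% in burn libraries 1 to 3. The shares did not overlap between the groups, with 74.0% in control 1 next to 75.0% in burn 1, and no test was made of them. P2rx6 came next with 6.51% to 10.7% over the 6 libraries, though with the longest transcript as the length its mean share, 6.63%, was below the 6.80% of P2rx4. P2rx2 took 1.06% to 1.48%. Among the acid-sensing channels no gene dominated. Asic3 took 36.5% to 44.3% of the family's summed RPKM, Asic2 33.6% to 40.5%, Asic1 21.2% to 24.8% and Asic4 0.0284% to 0.181%.

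**Figure D3:**
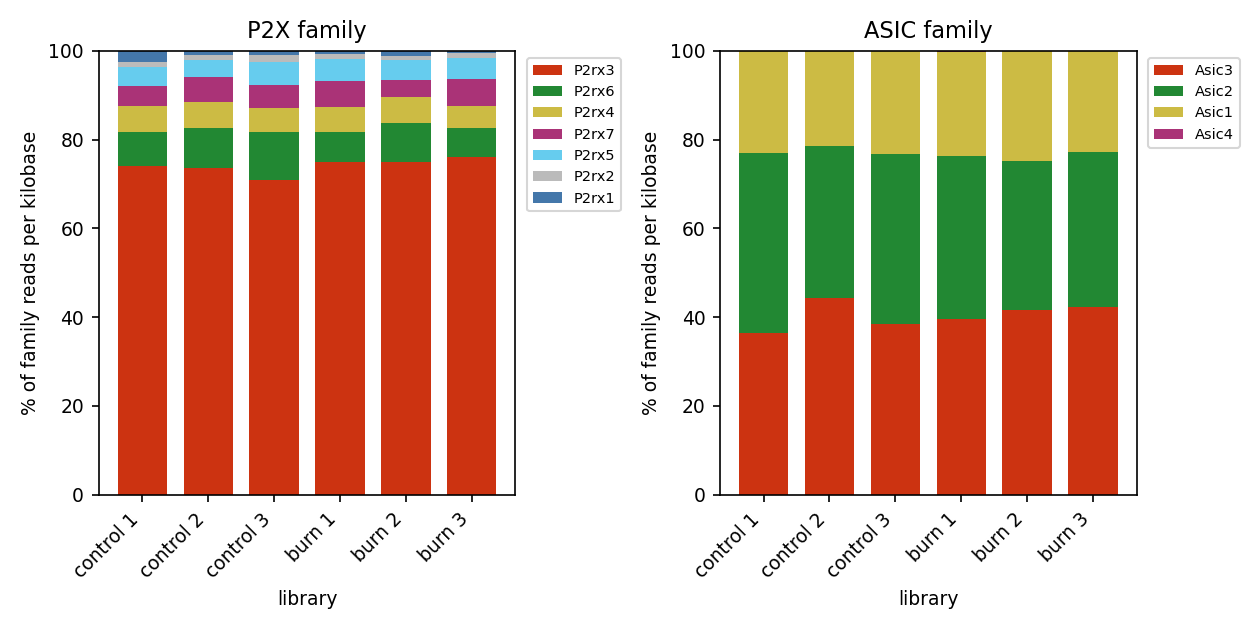
Share of each family's summed reads per kilobase taken by each gene, in percent, 1 bar per library; P2rx1, which is no member, is included in the P2X bars, and Asic4 is too small to see. P2rx3 fills 71.0% to 76.1% of every P2X bar, and Asic1, Asic2 and Asic3 share the ASIC bars.

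P2rx4, an ATP receptor of neurons, macrophages and glia, lies on chromosome 5 at 122707544 to 122729738, plus strand. It was the steadiest member. It stood at 29.0, 30.8 and 28.1 CPM in control libraries 1 to 3 and at 29.1, 31.2 and 28.3 CPM in burn libraries 1 to 3. The coefficient of variation over the 6 libraries was 4.37%, and 1.82% of all tested genes varied less. The log2 fold change was 0.01 (SE 0.10, 95% interval -0.23 to 0.25), and it was 0.01 both in the deeper pair and among the shallower libraries.

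P2rx7, a receptor that needs high ATP concentrations and is known from macrophages and glia, lies near P2rx4 on chromosome 5 at 122643911 to 122691432, plus strand. Its 19.4, 25.4 and 21.7 CPM in control libraries 1 to 3 and 26.9, 18.3 and 28.7 CPM in burn libraries 1 to 3 overlapped widely. Burn 2 held the lowest value and burn 3 the highest of all 6. The log2 fold change was 0.15 (SE 0.19, 95% interval -0.29 to 0.60, edgeR adjusted p 0.9998). It was 0.33 without burn 2 and 0.039 without burn 3. Burn 2 and control 1, the 2 libraries with the least P2rx7, also had the lowest summed levels of the 8 myelinating Schwann cell markers, at 4281 and 5236 CPM against 6798 to 9706 CPM in the other 4. These markers summed to 5236 to 9706 CPM in controls and 4281 to 8841 CPM after the burn, and none was at 0. The order of the 7 satellite glia markers was another. Their sum was lowest in burn 1, at 3900 CPM, where P2rx7 was second only to burn 3. Burn 2 had 3922 CPM, control 1 had 4235 CPM, and the highest sum was in control 3, at 4823 CPM. The 11 macrophage markers, 9 of them with a positive log2 fold change and 0 called, summed to 260 to 415 CPM in controls and 293 to 554 CPM after the burn. Burn 2 and control 1 also had the most skeletal muscle RNA, with marker sums of 12012 and 13097 CPM against 791 to 4380 CPM elsewhere. The part of any of these cell types in the P2rx7 values was not tested.

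P2rx5 and P2rx6 are less studied subunits, known also from skeletal muscle. P2rx5, on chromosome 11 at 73160421 to 73172685, plus strand, stood at 7.46, 6.96 and 9.25 CPM in control libraries 1 to 3 and 8.66, 8.15 and 9.26 CPM in burn libraries 1 to 3. Control 3 was level with the highest burn library, so the groups overlapped (log2 fold change 0.14, SE 0.16, 95% interval -0.24 to 0.51). P2rx6, on chromosome 16 at 17561885 to 17577800, plus strand, stood at 22.3, 27.5 and 30.9 CPM in control libraries 1 to 3 and 20.4, 27.2 and 20.8 CPM in burn libraries 1 to 3. The burn libraries 1 and 3 were below every control, and burn 2 was inside the control range. Its log2 fold change was -0.24 (SE 0.17, 95% interval -0.63 to 0.15, unadjusted p 0.197), and leaving out 1 library at a time gave -0.38 to -0.11. The 14 muscle markers summed to 13097, 4380 and 791 CPM in control libraries 1 to 3 and to 3235, 12012 and 2072 CPM in burn libraries 1 to 3. Among the controls P2rx6 was higher where the muscle sum was lower. Among the burn libraries it was highest in burn 2, where the muscle sum was highest too. The part of muscle RNA in the P2rx6 values was not tested. Exons of P2rx6 share 13.9% of their bases with Slc7a4, which encodes a transporter-like protein on the other strand. No source used here gives the strand setting of the counting, so reads of the shared bases may be missing from P2rx6 or may have been counted in it. Slc7a4 itself had a log2 fold change of -0.28 (unadjusted p 0.0702).

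Asic1, Asic2 and Asic3 were each highest in control 3. Asic1, the widely expressed subunit of brain and sensory neurons, on chromosome 15 at 99670368 to 99701130, plus strand, stood at 46.4, 43.7 and 66.4 CPM in control libraries 1 to 3 and 48.3, 55.3 and 46.6 CPM in burn libraries 1 to 3. Asic2, which tunes the acid and ion selectivity of the channels it joins, spans chromosome 11 from 80880169 to 81968457, minus strand. It stood at 60.9, 52.4 and 81.2 CPM in the controls and 56.1, 55.7 and 53.1 CPM after the burn. Asic3, the subunit most closely tied to peripheral acid pain, on chromosome 5 at 24413392 to 24417835, plus strand, stood at 31.1, 38.5 and 46.2 CPM in the controls and 34.4, 39.2 and 36.4 CPM after the burn. For all 3 genes the burn libraries lay inside the range of the controls. The controls varied more than the burn libraries, with coefficients of variation of 23.7% against 9.22% for Asic1, 22.8% against 2.95% for Asic2 and 19.6% against 6.63% for Asic3, and this difference in spread was not tested.

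The log2 fold changes of these 3 genes had negative signs. They were -0.06 for Asic1 (SE 0.17, 95% interval -0.47 to 0.34), -0.24 for Asic2 (SE 0.16, 95% interval -0.62 to 0.14) and -0.08 for Asic3 (SE 0.16, 95% interval -0.44 to 0.29), each with an edgeR adjusted p of 0.9998. The intervals hold 0 and do not show that the levels were equal. Without control 3 the sign turned for Asic1 (0.16) and Asic3 (0.09), and Asic2 came to -0.04. With the mean level of the spinal cord markers as a covariate the values were 0.47, 0.15 and 0.30 for Asic1, Asic2 and Asic3, and they turned for P2rx2 (0.06), P2rx6 (0.23) and P2rx7 (-0.27) too, with 0 members called. In the deeper pair, 1 library of each group and so without a replicate check, the differences were -0.51, -0.61 and -0.34 for Asic1, Asic2 and Asic3, and among the 4 shallower libraries 0.20, -0.02 and 0.08. A term for the difference between these depth classes, added after seeing the data, called 0 members and 16 genes over all (lowest edgeR adjusted p of a member 0.960, for Asic1). It takes its spread from the 4 shallower libraries alone.

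**Figure D4:**
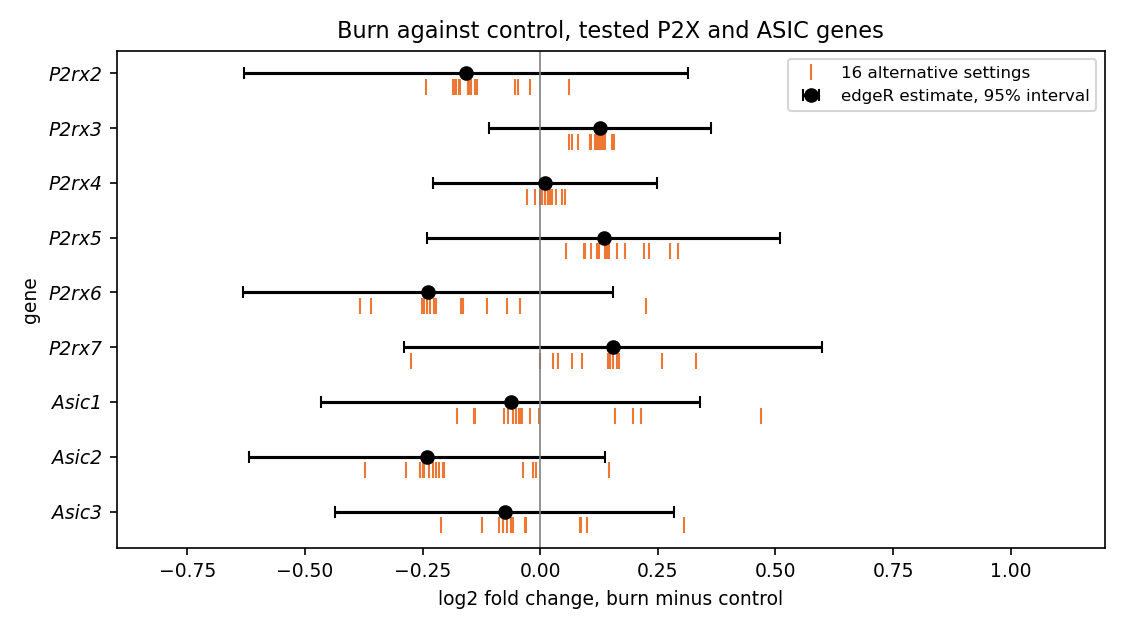
Log2 fold change, burn minus control, of the 9 tested genes with the 95% interval from edgeR (black) and the values under 16 alternative settings (orange ticks). Every interval holds 0, and the ticks of P2rx3 and P2rx5 lie on the positive side throughout.

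Control 3 also stood apart in some sums of neuronal markers, though not in all. It held the highest level of 5 of the 9 tested members (P2rx2, P2rx6, Asic1, Asic2 and Asic3), where 15.9% of all tested genes were highest in that library. The 8 markers of large neurons rich in neurofilament summed to 11894 CPM in control 3, against 7734 and 7957 CPM in the other controls and 6958 to 8878 CPM after the burn. The neurofilament genes themselves carried this sum, with 6726 CPM of Nefl, 2445 CPM of Nefh and 1935 CPM of Nefm in control 3, each the highest of the 6 libraries. Others of the list went both ways in control 3. Cntnap2 had its highest level there, 209 CPM, and Ntrk2 its second highest, 257 CPM. Ntrk3, the receptor of neurotrophin-3, and Spp1 had their second lowest, 73.0 and 147 CPM. Pvalb, the calcium-binding protein of proprioceptors, had its lowest, 101 CPM against 122 to 470 CPM elsewhere. Pvalb was highest in control 1 and burn 2, the libraries with the most skeletal muscle RNA. Whether muscle RNA had a part in the Pvalb level was not tested. These genes were named after their values were seen. Control 3 also had the highest sum of the pan-neuronal markers, 8351 CPM, and of the non-peptidergic markers, 2158 CPM. The peptidergic nociceptor markers summed to 2121 CPM there, below the 2136 CPM of control 1 and the 2168 CPM of burn 3. A glial list, the satellite glia markers, was highest in control 3 too, at 4823 CPM. Its spinal cord markers had the lowest sum of all libraries, 38.4 CPM. Burn 2, with the second highest neurofilament sum, also had the second highest Asic1 and Asic3, but was the third highest in P2rx6 and the fourth in Asic2. The part of neuron make-up in these values was not tested.

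**Figure D5:**
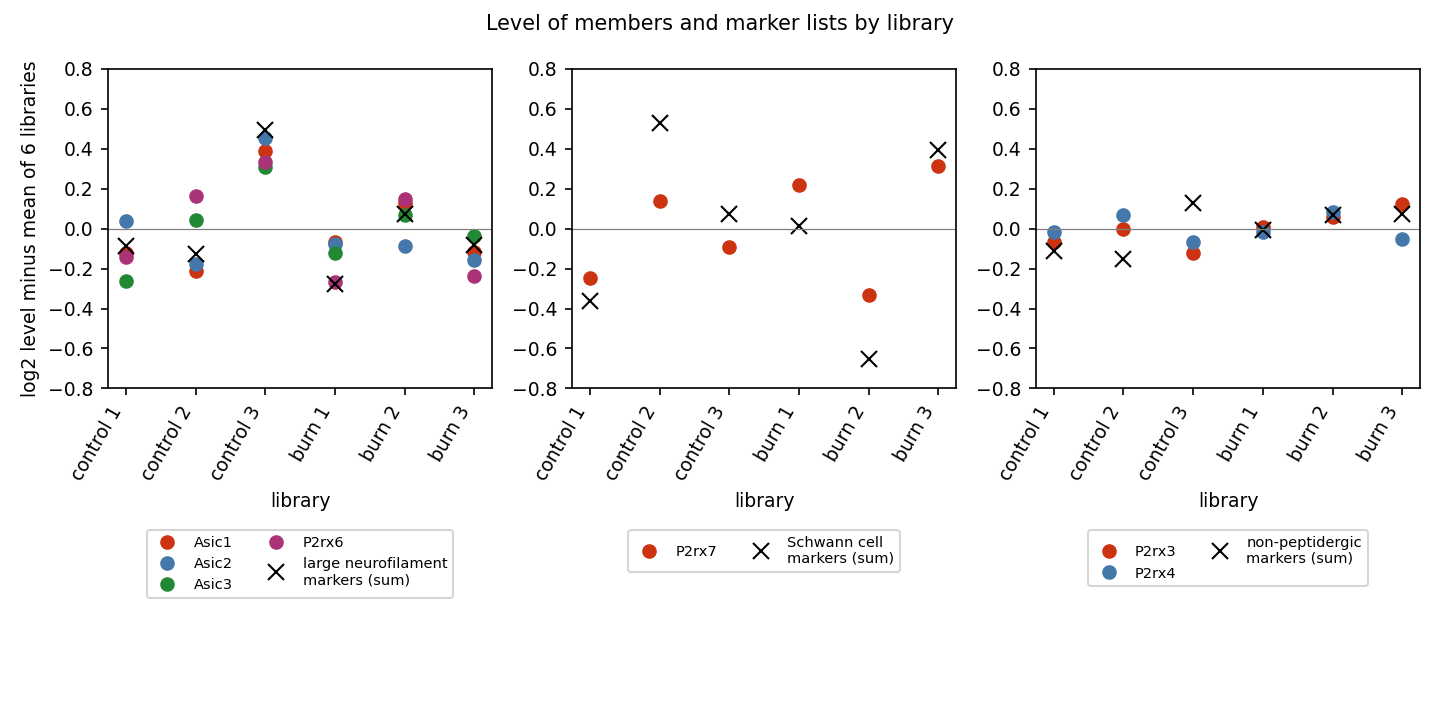
Level in each library minus the mean of the 6, on the log2 scale, for Asic1, Asic2, Asic3 and P2rx6 (left), P2rx7 (middle) and P2rx3 and P2rx4 (right); crosses are the summed markers of a cell type. Control 3 is the top point of the left panel for all 4 genes and the neurofilament markers, and control 1 and burn 2 are the low points of P2rx7 and the Schwann cell markers.

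Asic4 was close to absent. This gene, on chromosome 1 at 75450436 to 75474343, plus strand, had 1, 2 and 7 reads in control libraries 1 to 3 and 4, 2 and 7 in burn libraries 1 to 3. The pooled ratio of burn to control was 1.47, with a 95% exact binomial interval of 0.596 to 3.75 that covers counting error only. At this depth no difference was detectable. In its exons 18.1% of bases overlap Gm37264 on the other strand. Asic5, a further member of the gene family known from brain and intestine, had 0 reads in all 6 libraries, which allows up to 3 reads per library, or 0.0377 to 0.167 CPM.

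Few stretches of the members' longest transcripts were shared with other genes. Exons outside the longest transcript were not searched. Of the 75-base windows of the longest transcript, none was found in a transcript of another gene for P2rx2, P2rx3, P2rx4, P2rx5, Asic1, Asic2 and Asic3. The windows that were shared came from overlapping genes: 6.17% in P2rx6 (Slc7a4), 0.926% in P2rx7 (the microRNA gene Mir8115) and 8.33% in Asic4 (Gm37264). P2rx3 shares 1.83% of its exon bases with Ssrp1 on the other strand.

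Genes that release, break down or sense ATP and its products, or that sense acid by other means, gave 0 calls. Of 43 such genes 38 were tested, 14 with a positive and 24 with a negative log2 fold change, with a median of -0.05. In edgeR 2 of them were higher and 0 lower by unadjusted p under 0.05, where 2.04% and 0.924% of all tested genes were. By unadjusted p in either direction DESeq2 gave 2 and limma-voom 3 of these genes, and both tools called 0. Every burn library was above every control in 1 of the 38 and below in 0, where 4.33% and 2.91% of all tested genes were.

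Among 12 genes of ATP release and breakdown, Enpp2 (autotaxin, which makes lysophosphatidic acid) had 38.2, 46.5 and 36.4 CPM in control libraries 1 to 3 and 64.0, 44.2 and 57.9 CPM in burn libraries 1 to 3. The groups overlapped through burn 2 (log2 fold change 0.46, SE 0.17, unadjusted p 0.0250, edgeR adjusted p 0.9998). Alpl, the tissue-nonspecific alkaline phosphatase, had a log2 fold change of -0.35 (SE 0.17, unadjusted p 0.0691). Acpp, the prostatic acid phosphatase that turns AMP into adenosine in nociceptors, had the highest level of this list, 478 ± 65.8 CPM in controls and 451 ± 33.1 CPM after the burn (SD, n = 3). It was named after its values were seen.

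The G-protein-coupled receptors of nucleotides and adenosine did not pass. Of 8 P2Y receptor genes 7 were tested, 5 with a positive sign, with a median log2 fold change of 0.18. The lowest unadjusted p-values were those of P2ry14 (0.48, SE 0.28), a receptor of UDP-sugars, and P2ry6 (0.43, SE 0.29), a receptor of UDP, both of which are known from immune cells. Each was highest in burn 1, the library with the highest macrophage sum, 554 CPM. Of all tested genes, 15.5% were highest in that library. Control 1 had the second highest macrophage sum, 415 CPM. There P2ry14 was the third highest of the 6 libraries and P2ry6 the second lowest. The part of macrophages in the P2ry14 and P2ry6 values was not tested. All 4 adenosine receptor genes had negative signs, with a median of -0.13, among them Adora1 (-0.12, SE 0.14) and Adora3 (-0.51, SE 0.52). P2rx1, the P2X subunit of platelets and smooth muscle, had 168, 36 and 148 reads in control libraries 1 to 3 and 36, 69 and 68 in burn libraries 1 to 3 (log2 fold change -0.81, SE 0.44, unadjusted p 0.109). Its highest level, 4.59 CPM, was in control 1, and the other 5 libraries held 1.03 to 2.28 CPM.

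Of 9 acid sensors other than ASICs, all were tested, 3 with a positive and 6 with a negative sign, with a median of -0.03. Kcnk9, an acid-inhibited two-pore potassium channel gene, was the 1 tested gene of these lists with every burn library above every control. It had 31, 16 and 46 reads in control libraries 1 to 3 and 32, 31 and 118 in burn libraries 1 to 3, or 0.847, 0.890 and 0.578 against 1.41, 1.03 and 1.79 CPM. Its log2 fold change was 0.92 (SE 0.31, unadjusted p 0.0192, edgeR adjusted p 0.9998). The spinal cord markers summed to 63.9, 59.5 and 38.4 CPM in control libraries 1 to 3 and to 87.5, 57.6 and 99.9 CPM in burn libraries 1 to 3. Burn 1 and burn 3 were thus above every control in both Kcnk9 and this sum. Burn 2 was above every control in Kcnk9 and below control 1 and control 2 in the sum. By the mean log2 CPM of the markers, the measure used as the covariate, burn 2 too was above every control. The place of burn 2 in the markers therefore rests on the measure chosen. The part of spinal cord RNA in the Kcnk9 value was not tested. Kcnk1, another channel gene of this family, had -0.30 (SE 0.19). Of 5 genes for proteins that bind ASICs or resemble stomatin, 4 were tested, all with negative signs, with a median of -0.18. They included Stoml1 (-0.19, SE 0.11) and Stoml2 (-0.13, SE 0.10). Of the 3 epithelial sodium channel genes, relatives of the ASICs, Scnn1a was tested (0.04, SE 0.46).

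Genes whose profile over the 6 libraries was among the most like that of the leading member of each family were found by the root-mean-square difference of log2 CPM, each gene centred on its own mean, among 15530 genes. For P2rx3 they included Pdcl3, Zfp28, Ccnyl1 and Nln, with differences of 0.0308 to 0.0346, against a spread of P2rx3 itself of 0.0797. For Asic3 they included Grm4, Camk2n2, Kcnip3 and Baiap2l1, with differences of 0.0263 to 0.0428, against a spread of 0.176. The points share library, depth and scaling, and the likeness is a description of these 6 libraries.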

How the data were processed

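The authors deposited raw counts of reads per gene symbol, 1 table per library (3 burn, 3 control), made with STAR, SAMtools and HTSeq on mm10 and GRCm38, per the submitters' processing notes. The libraries were stranded total RNA, per the labels' protocols. No source used here gives versions, annotation release or strand setting. The 5 HTSeq tally lines, 49.2% to 56.2% of all entries, were left out.

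The test was edgeR 4.0.16 in R 4.3.3. Its filterByExpr (minimum count 10, minimum total 15) left 17534 genes, followed by TMM scaling, glmQLFit with robust set and a two-sided glmQLFTest on group. Benjamini-Hochberg adjustment ran over all 17534 genes. SE is the size of the log2 fold change divided by the square root of F, and the 95% interval uses the t quantile at the fit's degrees of freedom. CPM use the TMM-scaled library sizes, and log2 CPM a prior count of 2. RPKM divide CPM by the union of exons in GENCODE mouse release 21. Windows of 75 bases were searched with BLAST 2.17.0. Within groups, libraries differed beyond sampling noise, with a chi-square of 43.6 to 203 per degree of freedom, so no pair was treated as a single library deposited again. This does not show that they came from separate animals. On simulated data for 17371 genes the test recovered 59.7%, 98.5% and 100% of genes changed by 1, 2 and 4 on the log2 scale, with 18 false calls.

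Alternatives were RLE scaling, other filters, DESeq2 1.42.0, voom of limma 3.58.1, a replicate block, depth, muscle and spinal cord terms, and leaving out each library. Depth terms and marker lists for muscle and spinal cord were chosen knowing an earlier account of these data. Members and gene lists were chosen with earlier results of these data known. Genes named are all members, called genes and the 2 of lowest p in each pathway list, and the 5 nearest profiles whose mean log2 CPM was 0 or more, except items that are not reported here. Figures were drawn with matplotlib 3.10.9.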

Additional observations from a re-analysis of the deposited data

How the results depend on the processing

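Under each of 16 alternative settings, 0 members and 0 genes of the pathway lists were called, while calls over all genes ran from 0 to 38. The sign of a member's log2 fold change turned in 14 of 144 values, none of them called. With the spinal cord covariate it came to 0.061 for P2rx2, 0.23 for P2rx6, -0.27 for P2rx7, 0.47 for Asic1 (unadjusted p 0.0496), 0.15 for Asic2 and 0.30 for Asic3. That covariate did not overlap between the groups, so its fit can hardly tell the burn from the spinal cord markers. With the 4 shallower libraries alone the log2 fold change was 0.21 for Asic1 and 0.10 for Asic3. With the replicate block it was 0.20 for Asic1 and 0.085 for Asic3, and 4 genes were called over all genes, as without it. Libraries with the same number deviated with correlations of -0.09 and -0.06, so the numbers do not pair them. The crossed correlations were higher, 0.44 for burn 1 with control 2 and 0.38 for burn 2 with control 1. What these libraries share was not tested. Leaving out 1 library at a time gave -0.24 to -0.022 for P2rx2, 0.11 to 0.16 for P2rx3, -0.028 to 0.052 for P2rx4, 0.054 to 0.28 for P2rx5, -0.38 to -0.11 for P2rx6, 0.039 to 0.33 for P2rx7, -0.18 to 0.16 for Asic1, -0.37 to -0.037 for Asic2 and -0.21 to 0.088 for Asic3. Asic2 had an unadjusted p of 0.0403 without control 2 (log2 fold change -0.37). The cause was not tested. P2rx3 kept a positive sign in all 16, from 0.06 to 0.16, and P2rx5 in all 16, from 0.05 to 0.29. Depth limits Asic4 most, which was tested without a filter and by DESeq2 (log2 fold change 0.58 and 0.63, adjusted p 0.986 and 0.9999). With 3 libraries a group, intervals of the other members reached from 0.24 to 0.47 on either side of the estimate.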

Other observations

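A few relatives and partners of the channels were detected with only 0 to 4 reads in each library. Stoml3, which encodes a stomatin-like partner of ASICs in mechanosensory neurons, had 1, 0 and 3 reads in control libraries 1 to 3 and 1, 4 and 4 in burn libraries 1 to 3. Scnn1g and Scnn1b, subunits of the epithelial sodium channel, had at most 2 reads in any library, as did P2ry4, a P2Y receptor of UTP. In Stoml3 and Scnn1g every burn library lay above every control in CPM, a position that 4.33% of all tested genes held. This order rests on single reads divided by library depth, as Stoml3 had 1 read in both control 1 and burn 1. No difference between the groups can be read from it. These genes did not pass the filter on low counts and were named after their values were seen.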
